A study of Mus musculus with 24 samples.

Results

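The levels of 10 genes that encode amino acid transporters of the plasma membrane were followed on 24 arrays of mouse primary hepatocytes. They are Slc7a2, Slc7a1, Slc7a5, Slc3a2, Slc38a2, Slc38a3, Slc38a4, Slc1a4, Slc1a5 and Slc43a1, and they were taken by symbol from the platform's table of probe sets and genes. All 10 were found among the 22180 genes with a probe set of their own. Slc1a5 had more than 1 probe set, and the one with the higher mean was used.

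The study set glucagon against insulin in cells that carried an adenoviral hairpin against FOXA2 or against lacZ, with or without an agonist of the bile acid receptor FXR. The 8 groups of 3 arrays combined the hairpin (shFOXA2.3, or shlacZ against a bacterial gene that is absent from mouse cells), the hormone (100 nM glucagon or 1 nM insulin) and the drug (2 µM GW4064 or its solvent DMSO). All groups held hepatocytes of male C57Bl6J mice that had received adenovirus at a multiplicity of infection of 5, were kept in medium with 100 nM dexamethasone, and were treated for 4 h. Each of the 3 experiments used cells pooled from 3 mice and supplied 1 array to every group, so a pool of animals is the replicate. No group went without both hormones, so higher levels with glucagon and lower levels with insulin cannot be told apart.

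Hepatocytes take amino acids up from portal blood and either break them down, turning the nitrogen into urea and the carbon into glucose, or build them into protein. Membrane carriers set which amino acids enter: cationic carriers bring in arginine, lysine and ornithine, system A and system N carriers bring in small neutral amino acids and glutamine with sodium, and system L and ASC carriers exchange large or small neutral amino acids. Glucagon is the fasting hormone that raises amino acid breakdown in the liver, and insulin is the fed hormone that favours protein synthesis.

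The values are log2 expression levels as deposited, 1 level per gene and array, between 1.46 and 13.5 over all probe sets, with array medians of 3.21 to 3.28. Levels of different transporter genes were not compared with each other, since each probe set has its own response. The same limit applies to the marker levels below and to cuts on mean level. Foxa2, the target of the hairpin, had levels of 6.79 to 7.21 with shFOXA2.3 and glucagon, against 7.11 to 7.72 with shlacZ and glucagon. With insulin it had 5.54 to 6.08 with shFOXA2.3, against 6.07 to 6.30 with shlacZ. It was lower with shFOXA2.3 in all 12 pairs of the same experiment, hormone and drug, by 0.43 ± 0.072 (SE) on average. This missed the threshold of 0.05 in limma (adjusted p = 0.0613) and passed it with the experiment as a block (adjusted p = 0.0194), and corresponds to a 1.35-fold lower level. The gap was smallest in experiment 3. There Foxa2 under glucagon was at 7.21 (DMSO) and 7.03 (GW4064) with shFOXA2.3, against 7.24 and 7.11 with shlacZ. Under insulin it was at 6.08 and 5.98 with shFOXA2.3, against 6.22 and 6.21 with shlacZ. Pck1, the gluconeogenic enzyme that glucagon induces, had 8.01 to 10.7 under glucagon and 3.07 to 4.16 under insulin. Nr0b2, the FXR target that encodes SHP, had levels of 2.94 to 3.76 with GW4064 and of 2.66 to 3.15 with DMSO. The Nr0b2 difference was 0.53 ± 0.081 (SE, adjusted p = 0.0337 in limma). Slc51a, read as a further check of the drug, had 2.36 to 2.67 with GW4064 and 2.41 to 2.84 with DMSO. Its difference was -0.06 ± 0.042 (SE, unadjusted p = 0.171 in limma) and did not pass. All Slc51a levels lay below the array medians and Nr0b2 lay near them, so both are weak checks. Of 11 hepatocyte markers measured the median mean level was 10.5, with Alb the highest at 13.1 and Serpina1a (5.47) and Asgr1 (4.07) the lowest. The medians were 2.91 over 8 macrophage markers, 3.13 over 7 stellate cell markers, 4.78 over 7 endothelial markers, 3.37 over 5 cholangiocyte markers and 2.52 over 6 lymphocyte markers. The highest of these markers were Cd68 (9.12), Cd14 (7.87), Sox9 (7.18), Cdh5 (6.94) and Lyve1 (6.72). In the hormone comparison 5 of 11 hepatocyte markers rose and 1 of 5 cholangiocyte markers (Sox9) fell. Of all genes, 7.38% were called higher and 8.85% lower in limma. The hepatocyte list includes Tat and Cps1, which are also on the list of amino acid enzymes below. Of 28 macrophage, stellate, endothelial and lymphocyte markers 0 passed in limma, beside 16.2% of all genes, and 1 had an unadjusted p under 0.05. With the experiment as a block 5 of these 28 passed, beside 24.6% of all genes. The part of the marked cell types in the results was not tested, and in bulk RNA fewer cells of a type and less RNA per cell cannot be told apart.

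Glucagon and insulin divided the set. Averaged over hairpin and drug, Slc7a2 and Slc38a4 rose under glucagon relative to insulin, Slc7a1, Slc7a5 and Slc1a4 fell, and Slc3a2, Slc38a2, Slc38a3, Slc1a5 and Slc43a1 did not pass the test. These were 5 of 10 genes called at an adjusted p under 0.05 in limma, where 16.2% of all 22180 genes were called. The 2 rises stand beside 7.38% of all genes higher, and the 3 falls beside 8.85% of all genes lower. With the experiment as a block 6 of 10 were called, the added one being Slc38a2, beside 24.6% of all genes. Levels matter for such shares: of the 5864 genes with a mean level over 6, which include 8 of the 10 transporters, 36.7% were called. A called difference of more than 1.5-fold either way was rarer, at 8.1% of those genes and 3.62% of all genes. Slc7a2, Slc7a1, Slc7a5 and Slc1a4 each had one. Their glucagon and insulin levels did not overlap, and the share of all genes that separated in this way was not counted. The median difference of the 10 was -0.05, against 0.0051 over all genes.

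**Figure D1:**
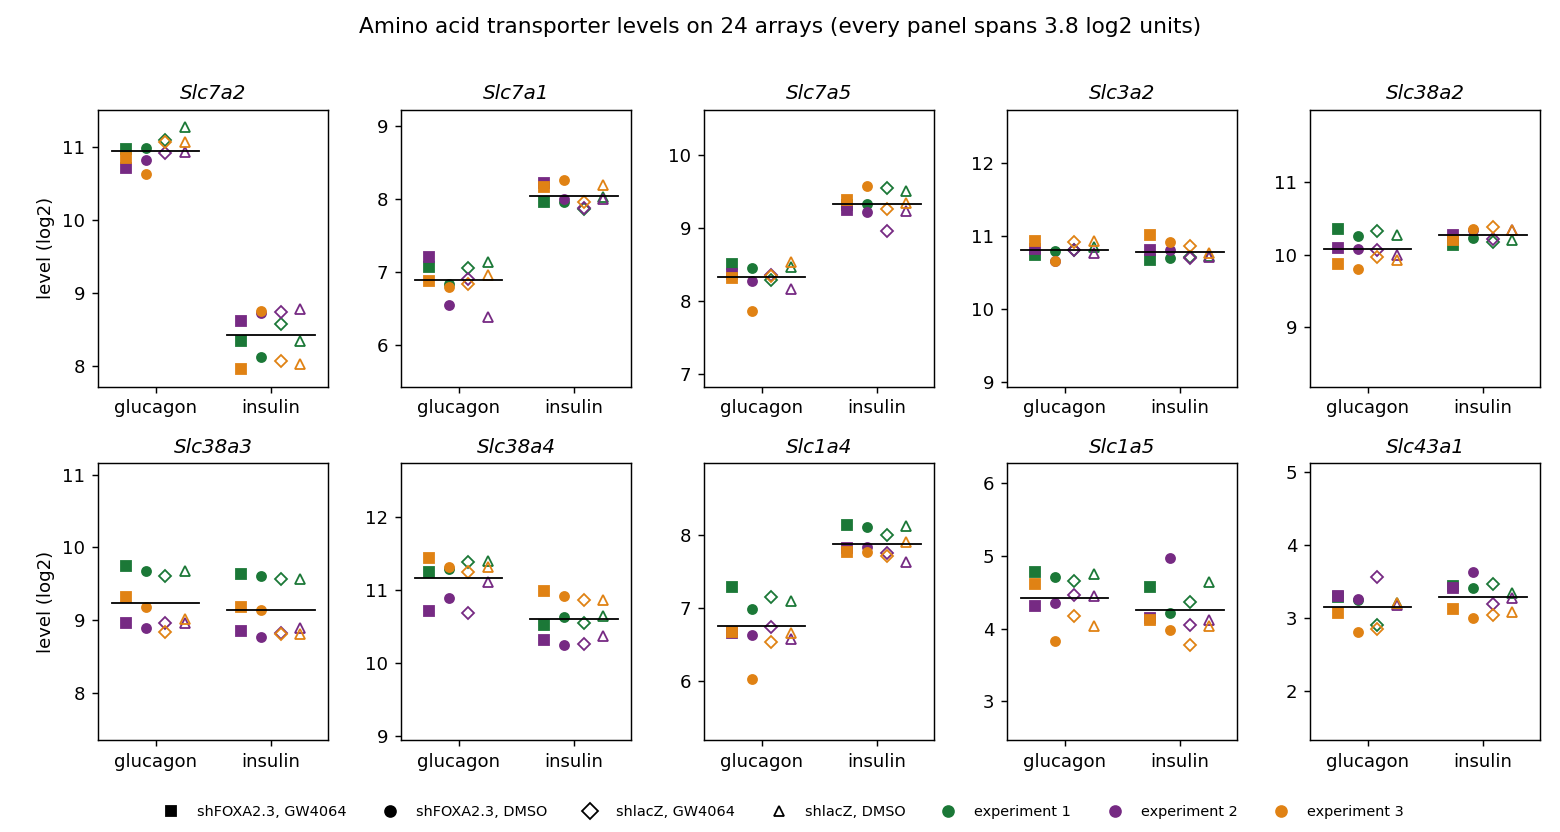
Level (log2) of each transporter gene on the 24 arrays, glucagon at left and insulin at right in each panel; symbols give hairpin and drug, colours give the experiment, horizontal lines give the mean of 12 arrays, and every panel spans the same number of log2 units. Slc7a2 lies higher and Slc7a1, Slc7a5 and Slc1a4 lie lower under glucagon with no overlap between the hormones, while the Slc38a3 points of experiment 1 lie above those of the other experiments.

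The promoter windows of 3 called genes are shown as the sequence at the starts of genes that moved in opposite directions. RefSeq's promoter table (GRCm38.p6) held 6 of the 10 genes with 9 start sites, and Slc7a2, Slc7a5, Slc38a3 and Slc1a5 are named only. The windows run from 250 bases before to 25 bases after the most upstream start listed, 5′ to 3′ along the gene, and all 3 genes lie on the minus strand. Capitals mark matches to motifs searched on both strands, and the windows are chr5:148399880-148400154 for Slc7a1, chr11:20332689-20332963 for Slc1a4 and chr15:97055932-97056206 for Slc38a4.
Slc7a1: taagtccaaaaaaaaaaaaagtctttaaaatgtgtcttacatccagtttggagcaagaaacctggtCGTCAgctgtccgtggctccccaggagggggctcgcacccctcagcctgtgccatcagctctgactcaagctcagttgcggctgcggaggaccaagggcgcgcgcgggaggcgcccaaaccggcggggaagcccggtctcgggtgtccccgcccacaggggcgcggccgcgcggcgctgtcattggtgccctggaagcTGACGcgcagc
Slc1a4: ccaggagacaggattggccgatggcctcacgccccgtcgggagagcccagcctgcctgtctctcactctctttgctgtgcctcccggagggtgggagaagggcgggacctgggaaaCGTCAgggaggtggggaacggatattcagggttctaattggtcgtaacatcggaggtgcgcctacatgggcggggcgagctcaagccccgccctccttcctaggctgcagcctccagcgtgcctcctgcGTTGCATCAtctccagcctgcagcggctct
Slc38a4: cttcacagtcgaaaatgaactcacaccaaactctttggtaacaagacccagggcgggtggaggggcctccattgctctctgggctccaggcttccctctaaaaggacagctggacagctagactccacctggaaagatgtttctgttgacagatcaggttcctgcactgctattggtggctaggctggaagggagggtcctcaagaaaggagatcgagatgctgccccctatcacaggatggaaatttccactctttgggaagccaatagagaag
The capitals in the Slc7a1 window are 2 copies of the short cAMP response motif TGACG, one read on the opposite strand 184 bases before the start and one 15 bases into the transcript. The Slc1a4 window has 1 copy of TGACG on the opposite strand, 134 bases before the start. It also has a match on the opposite strand to the core of the amino acid response element, TGATGNAAN, which spans the start. The Slc38a4 window has no match to any motif searched, so it has no capitals.

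Among 32851 promoter windows of the same length, 19.7% held TGACG and 3.72% held TGATGNAAN. The full cAMP response motif TGACGTCA, which contains TGACG, was in 1.73% of them and in none of the 9 windows of these genes. The forkhead motifs TGTTTAC and TGTTTGC were in 3.44% and 4.67% of all windows, and among the 9 windows only the second start of Slc7a1 held one, TGTTTGC. The inverted repeat bound by FXR was in 0.009% of all windows and in none of the 9. TATAAA was in 13.0% of all windows, and in those of the second starts of Slc7a1 and Slc38a4 and of Slc43a1. TGACG was also in the windows of Slc38a2 and of the second start of Slc38a4. A match is a description of these letters and says nothing of binding.

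Slc7a2 encodes CAT-2, a carrier of arginine, lysine and ornithine known in liver mainly as its low-affinity form. The arrays gave 1 level for the gene, so its forms were not told apart. It rose 5.76-fold under glucagon relative to insulin. Over 12 arrays a hormone, its level was 10.63 at the lowest, 10.96 at the median and 11.27 at the highest under glucagon, against 7.96, 8.46 and 8.78 under insulin. The gap between the lowest glucagon array and the highest insulin array was far wider than the spread within either hormone. In shFOXA2.3 cells with DMSO, experiments 1, 2 and 3 gave 10.996, 10.83 and 10.63 under glucagon, against 8.12, 8.73 and 8.76 under insulin. In shFOXA2.3 cells with GW4064 they gave 10.98, 10.71 and 10.86 under glucagon, against 8.35, 8.62 and 7.96 under insulin. All 6 glucagon arrays lay above all 6 insulin arrays in these cells. In shlacZ cells with DMSO the levels were 11.27, 10.94 and 11.08 under glucagon, against 8.35, 8.78 and 8.02 under insulin. In shlacZ cells with GW4064 they were 11.10, 10.92 and 11.07 under glucagon, against 8.57, 8.74 and 8.07 under insulin. Here too the hormones did not overlap.

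The averaged Slc7a2 difference was 2.53 ± 0.10 (SE) on the log2 scale, with a 95% confidence interval of 2.31 to 2.74 (limma, adjusted p = 9.55e-13). It ranked 26th of 22180 genes by size and 18th among rises. The gene was higher under glucagon in 12 of 12 pairs of the same experiment, hairpin and drug, by 1.87 to 3.05. The pairs averaged 2.74 in experiment 1, 2.13 in experiment 2 and 2.71 in experiment 3. Experiment 2 thus had the smallest difference, and its insulin arrays were the highest in 3 of the 4 conditions. The single conditions gave 2.28 in shFOXA2.3 cells with DMSO (adjusted p = 9.2e-07), 2.54 with GW4064 (2.79e-07), 2.71 in shlacZ cells with DMSO (9.82e-08) and 2.57 with GW4064 (2.49e-07), each with an SE of 0.21 in limma. By group mean the order ran from 11.10 ± 0.17 (SD, n = 3) in shlacZ cells with glucagon and DMSO through 11.03, 10.85 and 10.82 in the other glucagon groups to 8.54, 8.46, 8.38 and 8.31 in the insulin groups. The ranges of neighbours within a hormone overlapped, and only those on either side of the step between the hormones did not.

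The smallest pair difference of Slc7a2, 1.87, came from shFOXA2.3 cells with DMSO in experiment 3, where the insulin array was at 8.76 and the other 3 insulin arrays of that experiment at 7.96 to 8.07. That array also stood apart in the chemokine gene Cxcl2, with 8.12 against 5.20 to 5.64 in the other 3. The shlacZ glucagon arrays of experiment 3 stood apart too, with Cxcl2 at 6.03 and 7.11 against 3.60 and 4.38 in the shFOXA2.3 glucagon arrays. The part of these arrays in the results was not tested further. The Slc7a2 call held in limma without either pair of arrays.

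Slc7a1 encodes CAT-1, the high-affinity carrier of the same cationic amino acids, which most tissues express and which is known to be scarce in quiescent rat liver. It went the other way from Slc7a2 and was 2.23-fold lower under glucagon. Over 12 arrays a hormone the lowest, median and highest levels were 6.38, 6.89 and 7.20 under glucagon, against 7.87, 8.002 and 8.27 under insulin. The groups did not overlap. With DMSO, shFOXA2.3 cells of the 3 experiments gave 6.84, 6.55 and 6.80 under glucagon, against 7.97, 8.003 and 8.27 under insulin. With GW4064, shFOXA2.3 cells gave 7.06, 7.20 and 6.87 under glucagon, against 7.96, 8.22 and 8.17 under insulin. Experiment 2 held both the lowest and the highest of these 6 glucagon arrays. With DMSO, shlacZ cells had levels of 7.14, 6.38 and 6.96 under glucagon, against 8.03, 8.001 and 8.20 under insulin. With GW4064, shlacZ cells had levels of 7.06, 6.91 and 6.84 under glucagon, against 7.87, 7.88 and 7.96 under insulin. The insulin arrays lay closer together than the glucagon arrays, with an SD of 0.14 under insulin and 0.24 under glucagon over 12 arrays each.

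The averaged Slc7a1 difference was -1.16 ± 0.074 (SE, 95% confidence interval -1.31 to -1.004, adjusted p = 4.68e-10 in limma). It was the 88th largest fall. All 12 pairs were lower under glucagon, with differences of -1.62 to -0.81, and the pair means were -0.93, -1.26 and -1.28 in experiments 1, 2 and 3. In single conditions the difference was -1.35 in shFOXA2.3 cells with DMSO (adjusted p = 6.93e-06), -1.07 with GW4064 (0.00016), -1.25 in shlacZ cells with DMSO (2.16e-05) and -0.97 with GW4064 (0.000519), with an SE of 0.15 in limma. The 2 cationic carrier genes thus moved in opposite directions in every experiment and condition.

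Slc7a5 encodes LAT1, the light chain of a system L exchanger of large neutral amino acids such as leucine and phenylalanine, and Slc3a2 encodes its heavy chain 4F2hc (CD98), which carries it and several other light chains to the membrane. Slc7a5 fell and Slc3a2 did not pass the test. The Slc7a5 levels over 12 arrays were 7.87 at the lowest, 8.35 at the median and 8.54 at the highest under glucagon, against 8.96, 9.32 and 9.58 under insulin. Every glucagon array lay below every insulin array. The shFOXA2.3 cells with DMSO gave, in the 3 experiments, 8.45, 8.28 and 7.87 under glucagon, against 9.33, 9.23 and 9.58 under insulin. The shFOXA2.3 cells with GW4064 gave 8.51, 8.37 and 8.32 under glucagon, against 9.31, 9.24 and 9.39 under insulin. Experiment 3 with DMSO held the widest pair. The shlacZ cells with DMSO had 8.46, 8.16 and 8.54 under glucagon, against 9.51, 9.23 and 9.35 under insulin. The shlacZ cells with GW4064 had 8.28, 8.36 and 8.34 under glucagon, against 9.55, 8.96 and 9.27 under insulin. The insulin level of experiment 2 in that condition was the lowest insulin array of all.

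The averaged Slc7a5 difference was -1.002 ± 0.074 (SE, 95% confidence interval -1.16 to -0.85, adjusted p = 4.89e-09 in limma), a 2.00-fold lower level under glucagon and the 118th largest fall. The 12 pairs were all lower, with differences of -1.71 to -0.60. The single conditions gave -1.18 in shFOXA2.3 cells with DMSO (adjusted p = 4e-05), -0.92 with GW4064 (0.000805), -0.98 in shlacZ cells with DMSO (0.000365) and -0.93 with GW4064 (0.000772). Without experiment 1 the last of these was -0.76 and missed the threshold in limma without a block (adjusted p = 0.0969).

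Slc3a2 levels lay close together. Its 12 glucagon arrays ran from 10.66 through a median of 10.81 to 10.93, and its 12 insulin arrays from 10.67 through 10.75 to 11.01. The ranges covered each other almost wholly. The averaged difference was 0.02 ± 0.044 (SE, 95% confidence interval -0.07 to 0.12, adjusted p = 0.825 in limma), and its sign turned under quantile normalization (-0.0067) and without experiment 1 (-0.01). The interval is narrow beside the fall of the light chain gene in the same arrays, though the difference between the genes was not tested.

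**Figure D2:**
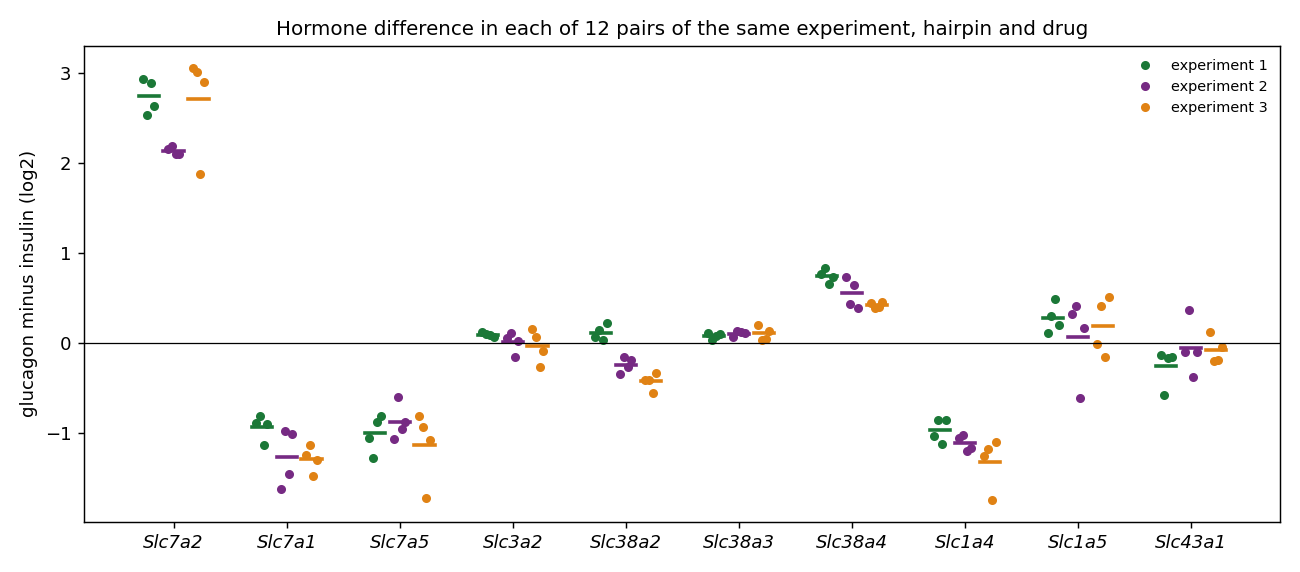
Glucagon minus insulin (log2) for each transporter gene in the 12 pairs of arrays of the same experiment, hairpin and drug; each point is a pair, colours give the experiment and short bars give the mean of its 4 pairs. All pairs of Slc7a2, Slc38a3 and Slc38a4 lie above 0, all pairs of Slc7a1, Slc7a5 and Slc1a4 lie below 0, and the Slc38a2 pairs lie above 0 in experiment 1 and below 0 in experiments 2 and 3.

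The Slc38 genes encode sodium-coupled carriers. Slc38a4 encodes SNAT4, a system A carrier prominent in the liver. It rose 1.49-fold under glucagon. Its levels over 12 arrays were 10.69 at the lowest, 11.27 at the median and 11.44 at the highest under glucagon, against 10.25, 10.59 and 10.99 under insulin. These ranges overlapped, since the experiments differed in level. In shFOXA2.3 cells with DMSO the 3 experiments gave 11.29, 10.89 and 11.32 under glucagon, against 10.63, 10.25 and 10.91 under insulin. In shFOXA2.3 cells with GW4064 they gave 11.25, 10.71 and 11.44 under glucagon, against 10.52, 10.32 and 10.99 under insulin. Experiment 2 was the lowest in each of these groups. In shlacZ cells with DMSO the levels were 11.41, 11.11 and 11.32 under glucagon, against 10.65, 10.37 and 10.87 under insulin. In shlacZ cells with GW4064 they were 11.39, 10.69 and 11.25 under glucagon, against 10.56, 10.26 and 10.86 under insulin. Within an experiment each glucagon array lay above its insulin partner.

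The averaged Slc38a4 difference was 0.57 ± 0.12 (SE, 95% confidence interval 0.33 to 0.81, adjusted p = 0.00112 in limma, 3.13e-08 with the experiment as a block). The 12 pairs were higher by 0.38 to 0.84. Pair means were 0.75 in experiment 1, 0.55 in experiment 2 and 0.42 in experiment 3. Without experiment 1 the difference was 0.49 and missed the threshold in limma without a block (adjusted p = 0.127). That fit ignored the pairing, and the arrays averaged 10.57 in experiment 2 and 11.12 in experiment 3. In single conditions the gene did not pass without the block: 0.57 in shFOXA2.3 cells with DMSO (adjusted p = 0.22), 0.52 with GW4064 (0.316), 0.65 in shlacZ cells with DMSO (0.139) and 0.55 with GW4064 (0.3). With the block all 4 passed, at adjusted p = 0.000797, 0.00211, 0.000232 and 0.0015 in the same order. Experiment accounted for 35.8% of the variance of its level over the 24 arrays and hormone for 56.0%.

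Slc38a2 encodes SNAT2, the system A carrier known to respond to amino acid shortage. Its levels over 12 arrays were 9.80 at the lowest, 10.07 at the median and 10.36 at the highest under glucagon, against 10.14, 10.25 and 10.37 under insulin. The ranges overlapped. The averaged difference was -0.18 ± 0.064 (SE, 95% confidence interval -0.32 to -0.05), which missed the threshold in limma (adjusted p = 0.0592) and passed with the experiment as a block (0.0285). The experiments did not go the same way: the 4 pairs averaged 0.11 in experiment 1, -0.24 in experiment 2 and -0.43 in experiment 3. In experiment 1 the glucagon levels were 10.26, 10.36, 10.27 and 10.32 in shFOXA2.3 cells with DMSO, shFOXA2.3 cells with GW4064, shlacZ cells with DMSO and shlacZ cells with GW4064, against 10.23, 10.14, 10.21 and 10.18 under insulin. In experiment 3 they were 9.80, 9.87, 9.93 and 9.96 under glucagon in the same order, against 10.36, 10.20, 10.33 and 10.37 under insulin. All 4 pairs of experiment 1 were higher under glucagon and all 8 pairs of the other experiments lower. The averaged difference therefore moved with the experiments that entered: it was -0.33 and passed without experiment 1 (adjusted p = 0.00355), and did not pass without experiment 2 (-0.16, 0.464) or without experiment 3 (-0.06, 0.687), all in limma without a block.

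Slc38a3 encodes SNAT3, the system N carrier that moves glutamine, histidine and asparagine in hepatocytes. Its levels were 8.84 at the lowest, 9.10 at the median and 9.74 at the highest under glucagon, against 8.76, 9.02 and 9.64 under insulin. The hormones overlapped, and the 8 arrays of experiment 1 lay above those of the other experiments. The arrays averaged 9.64 ± 0.062 in experiment 1, 8.89 ± 0.072 in experiment 2 and 9.04 ± 0.20 in experiment 3 (SD). Experiment accounted for 87.9% of its variance and hormone for 2.02%. The averaged hormone difference was 0.10 ± 0.15 (SE, 95% confidence interval -0.22 to 0.42, adjusted p = 0.792 in limma, 0.162 with the block). All 12 pairs were higher under glucagon, but by only 0.04 to 0.21.

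Slc1a4 and Slc1a5 encode ASCT1 and ASCT2, sodium-dependent exchangers of neutral amino acids, the first with alanine, serine and cysteine and the second also with glutamine. Slc1a4 fell and was 2.19-fold lower under glucagon. Over 12 arrays its lowest, median and highest levels were 6.03, 6.67 and 7.30 under glucagon, against 7.63, 7.83 and 8.14 under insulin. The groups did not overlap. Among DMSO cultures, the shFOXA2.3 cells gave 6.99, 6.63 and 6.03 under glucagon, against 8.11, 7.84 and 7.77 under insulin. Among GW4064 cultures, the shFOXA2.3 cells gave 7.30, 6.66 and 6.67 under glucagon, against 8.14, 7.83 and 7.77 under insulin. Experiment 1 was the highest in all 4 of these groups. The DMSO cultures of shlacZ cells had 7.10, 6.57 and 6.66 under glucagon, against 8.12, 7.63 and 7.91 under insulin. The GW4064 cultures of shlacZ cells had 7.16, 6.74 and 6.53 under glucagon, against 8.01, 7.76 and 7.71 under insulin. Experiment 1 was again the highest in each group.

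The averaged Slc1a4 difference was -1.13 ± 0.11 (SE, 95% confidence interval -1.37 to -0.89, adjusted p = 2.93e-07 in limma), the 91st largest fall. The 12 pairs were all lower, with differences of -1.74 to -0.85 and pair means of -0.96, -1.11 and -1.32 in experiments 1, 2 and 3. In single conditions it was -1.35 in shFOXA2.3 cells with DMSO (adjusted p = 0.000852), -1.04 with GW4064 (0.0104), -1.11 in shlacZ cells with DMSO (0.00514) and -1.02 with GW4064 (0.0129). In fits without the block these single calls were the least stable of the set. Without experiment 2 all 4 missed the threshold, at adjusted p = 0.0571, 0.279, 0.162 and 0.265 in the same order, and without experiment 3 both GW4064 conditions missed it, at 0.0552 in shFOXA2.3 cells and 0.0777 in shlacZ cells. Both GW4064 calls were also lost when any of 3 arrays of that condition was left out (under insulin that of experiment 1, under glucagon those of experiments 2 and 3), at adjusted p = 0.0535 to 0.0726. None of these fits took the pairing by experiment into account. The arrays averaged 7.62, 7.21 and 7.13 in experiments 1, 2 and 3, and the part of this in the lost calls was not tested. With the experiment as a block and all arrays kept, all 4 calls held.

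Slc1a5 was low, with 3.83, 4.45 and 4.78 as its lowest, median and highest levels under glucagon, against 3.77, 4.13 and 4.97 under insulin. The ranges overlapped, and its second probe set lay at 2.38 to 3.04. The averaged difference was 0.18 ± 0.13 (SE, 95% confidence interval -0.10 to 0.45, adjusted p = 0.474 in limma), with 9 of 12 pairs higher under glucagon. Slc43a1 encodes LAT3, a system L carrier without a heavy chain. Its levels were 2.81, 3.20 and 3.56 under glucagon, against 2.99, 3.31 and 3.63 under insulin, close to the median of all probe sets on the arrays (3.25). Its difference was -0.13 ± 0.091 (SE, 95% confidence interval -0.32 to 0.06, adjusted p = 0.449 in limma), lower in 10 of 12 pairs.

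**Figure D3:**
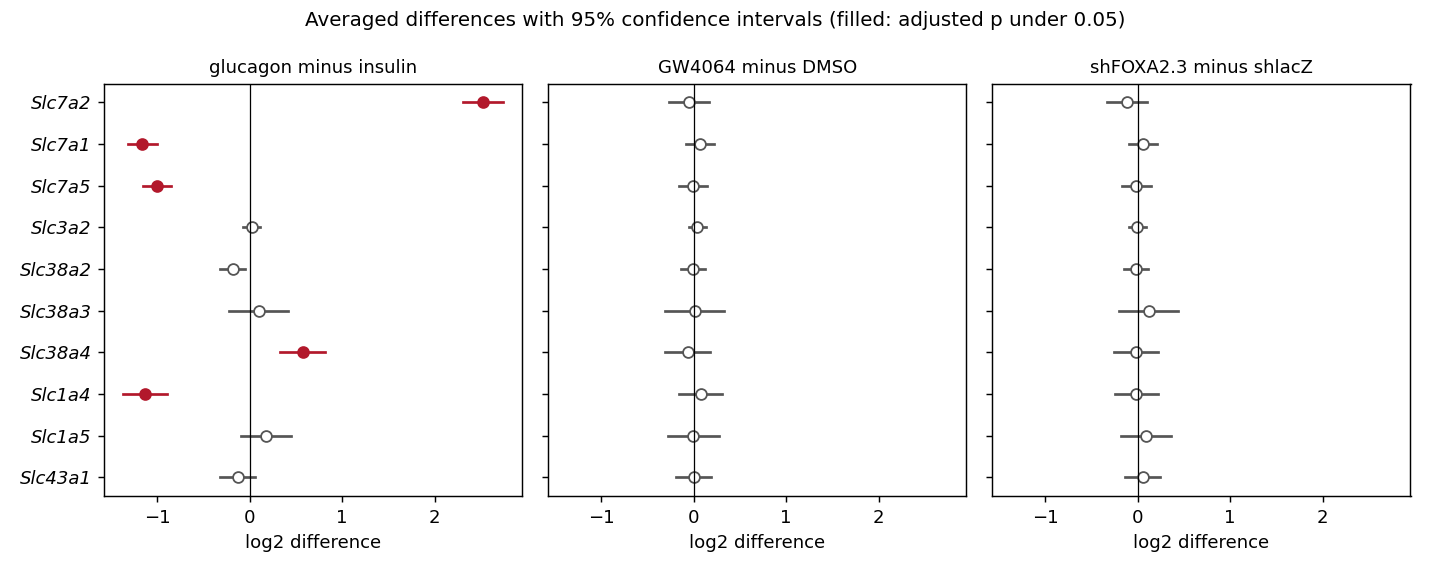
Averaged log2 difference of each transporter gene with its 95% confidence interval, for the hormone (glucagon minus insulin), the drug (GW4064 minus DMSO) and the hairpin (shFOXA2.3 minus shlacZ), each averaged over the other factors; filled points passed an adjusted p of 0.05 in limma. Only the hormone panel holds filled points: Slc7a2 and Slc38a4 to the right of 0, and Slc7a1, Slc7a5 and Slc1a4 to the left.

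In each single condition, 4 of the 10 genes passed the hormone comparison in limma, namely Slc7a2, Slc7a1, Slc7a5 and Slc1a4. The shares of all genes called were 4.79% in shFOXA2.3 cells with DMSO, 3.49% in shFOXA2.3 cells with GW4064, 4.68% in shlacZ cells with DMSO and 3.09% in shlacZ cells with GW4064. With the experiment as a block Slc38a4 joined them, making 5 of 10, beside 11.3%, 9.14%, 11.2% and 8.41% of all genes in the same order.

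No transporter gene was called with GW4064. Of the genes read as checks of the drug Nr0b2 passed and Slc51a did not, which limits this comparison. Averaged over hormone and hairpin, 0 of 10 genes passed in limma, 0 had an unadjusted p under 0.05 and 0 passed with the block, beside 0.00902% of all genes called (Nr0b2 among them). The 10 averaged differences lay between -0.07 and 0.07. Slc7a2 had 7.96, 9.73 and 11.10 as its lowest, median and highest levels in the 12 arrays with GW4064, against 8.02, 9.71 and 11.27 in the 12 with DMSO. These ranges nearly coincide, and the difference was -0.05 (95% confidence interval -0.26 to 0.17). Slc7a1 differed by 0.07 (-0.08 to 0.23) and Slc38a4 by -0.07 (-0.31 to 0.18). In the 4 single conditions 0 of 40 values passed in limma, beside 0% of all genes in each, with 1 unadjusted p under 0.05 and 2 with the block. The values ran from -0.23 to 0.32, the highest being Slc1a4 in shFOXA2.3 cells under glucagon. That gene had 7.30, 6.66 and 6.67 with GW4064, against 6.99, 6.63 and 6.03 with DMSO, and these groups overlapped. The single value with an unadjusted p under 0.05 in limma was Slc7a1 in the same cells, at 0.32 too. It had 7.06, 7.20 and 6.87 with GW4064, against 6.84, 6.55 and 6.80 with DMSO, and the 3 arrays with GW4064 lay narrowly above the 3 with DMSO.

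The hairpin comparison also called none of the 10. Foxa2 itself differed little between the hairpins in experiment 3, which limits this comparison. Averaged over hormone and drug, 0 passed in limma, 0 had an unadjusted p under 0.05 and 1 did with the block, beside 0.00902% of all genes called. The averaged differences lay between -0.11 and 0.12. Slc7a2 was at the low end, at -0.11 (95% confidence interval -0.33 to 0.10, adjusted p = 0.911). It was lower with shFOXA2.3 in 11 of 12 pairs, and the exception was the pair that holds the insulin and DMSO array of experiment 3 described above, which was higher by 0.74. Slc38a3 was at the high end, at 0.12 (-0.20 to 0.44, adjusted p = 0.95), higher in 10 of 12 pairs. Its pairs averaged 0.06 in experiment 1, -0.05 in experiment 2 and 0.34 in experiment 3, so experiment 3 supplied most of it. Slc7a1 differed by 0.06 (-0.10 to 0.21). In single conditions 0 of 40 values passed, 0 had an unadjusted p under 0.05 and 1 did with the block, and the values ran from -0.28 to 0.22. The shares of all genes called were 0% under glucagon with DMSO, 0% under glucagon with GW4064, 0.00451% under insulin with DMSO and 0% under insulin with GW4064.

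Whether the hormone difference itself depended on hairpin or drug was tested with interaction terms. For hormone by hairpin, hormone by drug, drug by hairpin and the 3-way term, 0 of 40 values passed in limma, 0 had an unadjusted p under 0.05 with or without the block, and 0% of all genes were called in each. The values ran from -0.23 to 0.40. A p that misses the threshold does not show that the differences were equal: the SE of a hormone by hairpin term was 0.21 for Slc7a2 and 0.15 for Slc7a1 on the log2 scale. The small Foxa2 difference in experiment 3 also limits the terms that hold the hairpin.

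Genes whose levels followed those of the transporters most closely over the 24 arrays are given as a description, since hormone groups and experiments are shared by all of them. For Slc7a2 they were Cdc42ep5 (r = 0.982), Ppm1k (0.977) and Nr4a3 (0.975). For Slc7a1 they were Stbd1 (0.966), 2410002F23Rik (0.962) and Hgh1 (0.959). For Slc7a5 they were Stk40 (0.976), Gtpbp2 (0.966) and Mob3a (0.963), and for Slc1a4 Carhsp1 (0.970), Mid1ip1 (0.963) and Sesn2 (0.959). Hormone accounted for 96.4% of the variance of Slc7a2, 90.8% of Slc7a1, 89.9% of Slc7a5 and 82.6% of Slc1a4.

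Other genes of amino acid handling were read in the same averaged hormone comparison, by lists drawn up for these transporters. Of 24 other plasma membrane carriers 2 rose and 1 fell, with a median of 0.01. They were Slc16a10, the aromatic amino acid carrier TAT1 (0.75 ± 0.082 SE, adjusted p = 9.43e-07), Slc38a1, a further system A carrier (0.70 ± 0.18, 0.00715), and Slc6a6, the taurine carrier (-0.42 ± 0.058, 1.72e-05). With the block 5 rose and 2 fell. Of 9 mitochondrial carriers 3 rose: Slc25a15, which exchanges ornithine for citrulline in the urea cycle (2.72 ± 0.11, 5.82e-13), Slc25a22, a glutamate carrier (1.92 ± 0.14, 4.31e-09), and Slc25a13, an aspartate and glutamate carrier (0.43 ± 0.13, 0.0219). Slc25a15, the mitochondrial carrier of ornithine, and Slc7a2, the cationic carrier of the plasma membrane, were thus both higher under glucagon. Of 8 lysosomal carriers 4 rose (Slc29a3, Ctns, Slc66a1 and Slc38a9, by 0.34 to 0.59) and none fell, and 2 rose without experiment 1. Slc29a3 was on this list but encodes a carrier of nucleosides, not of amino acids. Each of these counts on all arrays stands beside 16.2% of all genes called in limma, or 24.6% with the block. Without experiment 1, 2018 of 22180 genes were called, against 3600 on all arrays.

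The counts that follow stand beside the same background over all genes, 7.38% higher and 8.85% lower in limma, 24.6% either way with the block, and 36.7% either way in limma among genes with a mean level over 6. Counts with an experiment left out stand beside fewer calls over all 22180 genes: 2018 without experiment 1 and 2216 without experiment 2, against 3600 on all arrays. Of 20 measured enzymes that use the transported amino acids, 9 rose and 1 fell, with a median of 0.46. With the block 15 rose and 1 fell, and without experiment 1 the rises numbered 4. The largest were Aass of lysine breakdown (3.17 ± 0.33 SE, adjusted p = 4.68e-07), Tat of tyrosine breakdown (2.99 ± 0.26, 3.46e-08), the aspartate aminotransferase Got1 (1.64 ± 0.060, 1.26e-13) and Tdo2 of tryptophan breakdown (1.58 ± 0.28, 0.000325). The other direction held the ATF4 list, genes of the response to amino acid shortage and stress. ATF4 is known to act on transporter genes too, Slc7a5, Slc3a2 and Slc7a1 among them, and the list leaves the 10 transporters out. Of the genes just named Slc3a2 did not pass the hormone comparison, and a part of ATF4 in the transporter levels was not tested. Of the 18 genes on the list 10 fell and 1 (Cebpb) rose, with a median of -0.22, and with the block 10 fell and 2 rose. The largest falls were Atf3 (-1.81 ± 0.24, 1.01e-05) and Ddit3 (-1.18 ± 0.12, 5.9e-07), both stress transcription factors, the leucine sensor Sesn2 (-1.02 ± 0.11, 6.47e-07) and the stress-induced nuclear protein gene Nupr1 (-0.87 ± 0.12, 1.11e-05). Of 22 genes of amino acid sensing by mTORC1, the kinase complex that couples amino acids to growth, 5 rose and 3 fell, with a median of 0.11. The counts were 9 and 3 with the block, and 2 rose without experiment 1, while 3 rose and 1 fell without experiment 2. Sesn2, counted in both lists, fell, while Fnip1 (0.53 ± 0.097, 0.000408), Bmt2 (0.48 ± 0.061, 6.08e-06) and Sesn3 (0.45 ± 0.096, 0.00193) rose. With GW4064, 0 of the 98 genes of these 6 lists passed the averaged comparison in limma or with the block, and 1 had an unadjusted p under 0.05. With the hairpin 0 passed in limma, 1 passed with the block and 2 had an unadjusted p under 0.05.

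**Figure D4:**
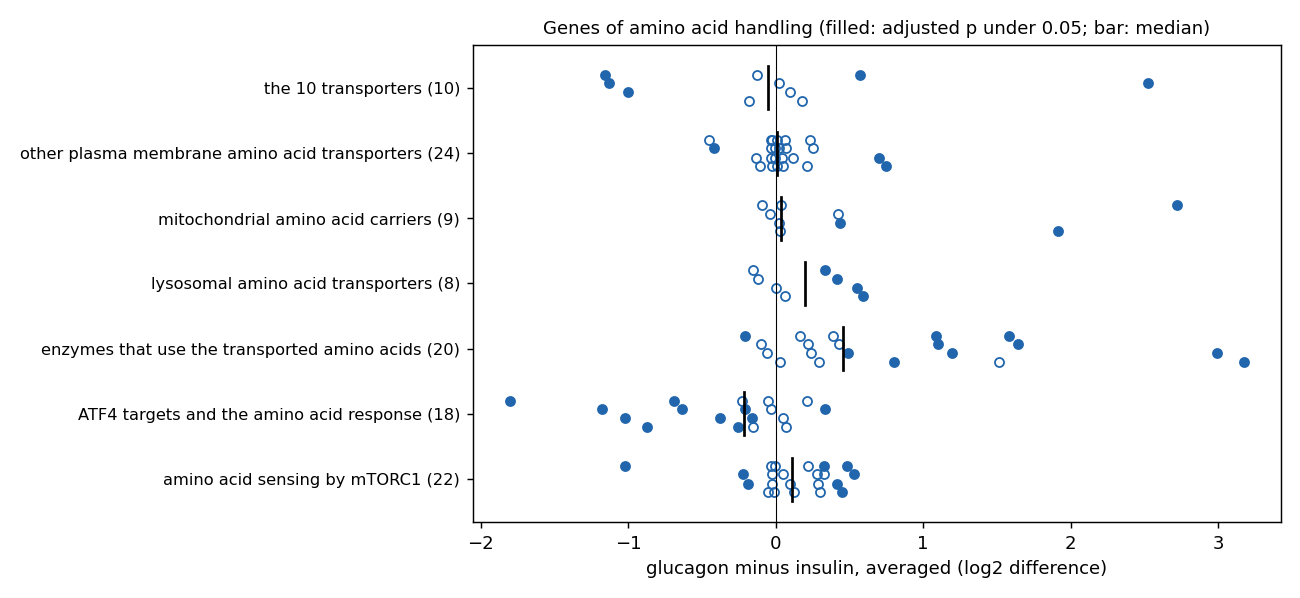
Averaged glucagon minus insulin difference (log2) of each gene in the transporter set and in 6 lists of amino acid handling; each point is a gene, filled points passed an adjusted p of 0.05 in limma, vertical bars give the list's median and the number measured follows the name. The enzyme list leans to the right of 0 and the ATF4 list to the left, while the 10 transporters lie on both sides. The lysosomal list includes Slc29a3, a nucleoside carrier.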

How the data were processed

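Expression was measured on Affymetrix MoGene 2.0 ST arrays with labelled DNA from 300 ng of RNA, per the labels' protocols. Per the series' design text the authors processed the arrays with GeneSpring and pooled technical replicates. The deposited values are on a log2 scale, as their range shows, with 0 missing values, and their normalization is not given in the sources used here. Of 41345 probe sets 23521 had 1 symbol in the platform table, which gave 22180 genes, with the probe set of highest mean kept for the 1082 genes with several. No column of sample values was left unused (0).

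The 8 group means were fitted in 1 limma model (limma 3.58.1, R 4.3.3), with 16 residual degrees of freedom and 19 contrasts, Benjamini-Hochberg adjustment over 22180 genes and a threshold of 0.05. The number of arrays limits the precision: the median SE over genes was 0.13 on the log2 scale for a single condition and 0.063 for an averaged contrast. An averaged contrast treats the 4 pairs of an experiment as separate, so p-values there partly measure spread within pools. The script was tested on simulated data without differences between experiments, so that test does not bear on the pairing by experiment.

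The labels number 3 experiments, each with its own pooled cells, so arrays of 1 experiment are paired. Deviations of arrays of the same experiment correlated at 0.374 to 0.698 (median 0.474) over 84 pairs, and 24 of 24 arrays correlated best with their own experiment. The experiment as a block is an alternative fit and is printed where it changes a call.

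All 10 genes are described. From each list up to 4 genes past the threshold with the largest hormone difference are named, and for transporters past 1.5-fold the 3 genes of highest correlation. Members and lists were chosen with earlier results of these data known.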

Additional observations from a re-analysis of the deposited data

How the results depend on the processing

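The 36 transporter results were recomputed under 38 alternatives: the experiment as a replicate block, other scalings, filters, probe set rules, weights, priors and sample sets, and each array or experiment left out. Only the block fit took the experiment into account, so the fits with arrays or experiments left out ignored the pairing. Of 1366 recomputed values 1332 kept their direction and their side of the threshold, 16 lost a call, 12 gained one and 6 changed sign, all 6 in differences that passed no test. The averaged calls of Slc7a2, Slc7a1, Slc7a5 and Slc1a4 held under all 38. The sign changes were in Slc3a2 for the hormone (-0.0067 under quantile normalization, -0.010 to 0.053 with arrays or experiments left out), Slc7a2 for GW4064 (-0.10 to 0.0037 with arrays left out), Slc7a1 for GW4064 (-0.052 to 0.16) and Slc7a1 for the hairpin (-0.014 to 0.12). The replicate block (pairing by experiment) added the averaged call of Slc38a2 (adjusted p = 0.0285) and the 4 single-condition calls of Slc38a4, and changed no other call of a transporter gene. Slc38a2 also passed with arrays centred on their median (0.0342), with a filter on level (0.0328), and with any 1 glucagon array of experiment 1 left out (0.02 to 0.0293), but with experiments or arrays left out its difference ranged from -0.33 to -0.06 and its adjusted p from 0.00355 to 0.687, the weakest being without experiment 3. Slc1a4 in shFOXA2.3 cells with GW4064 missed the threshold when only the groups of that contrast entered the fit (0.0593), and in shlacZ cells with GW4064 without both shlacZ glucagon arrays of experiment 3 (-0.88, 0.0817), an alternative chosen after seeing the data. Over all genes the averaged hormone count was 3600, against 5454 with the block, 2018 without experiment 1 and 2216 without experiment 2. The single-condition counts were 1062 in shFOXA2.3 cells with DMSO, 775 in shFOXA2.3 cells with GW4064, 1039 in shlacZ cells with DMSO and 686 in shlacZ cells with GW4064. In that order they were 2500, 2027, 2481 and 1865 with the block, 409, 316, 541 and 232 with only the groups of the contrast, 362, 181, 297 and 174 without experiment 1, and 363, 301, 313 and 246 without experiment 2. Leaving out both shFOXA2.3 DMSO arrays of experiment 3, also chosen after seeing the data, gave 595 for the first. Among single arrays of experiments 1 and 2, 8 moved such a count by over 1.5 times, to between 406 and 698. The cause of these changes was not tested. The filter on level left Slc1a5 and Slc43a1 out, so they have no value there. Signal near the lower end of the scale limits Slc1a5 and Slc43a1, and 3 experiments limit the rest.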
